A study of Homo sapiens with 5 samples.

Results

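The genes described here are the 3 members of the ITM2 family (ITM2A, ITM2B and ITM2C) and the 2 flotillins (FLOT1 and FLOT2), found by symbol among the 60651 genes listed in each library. They were chosen from the read counts of these same libraries: ITM2B and FLOT2 ranked 1 and 2 by p-value among the 16341 genes tested for a difference between USP17 siRNA and control siRNA, and their paralogs were added by family. The values of the 5 genes in that contrast are therefore given as a description, without a test. RNA came from COLO 320DM, a human colorectal adenocarcinoma cell line with an amplified MYC gene, and poly(A) RNA was sequenced. The USP17 siRNA group held 3 libraries, each with a different siRNA label (siIDT, sino4 and siSMPLT). The control siRNA group held the non-silencing controls siL2 and siNT. The labels do not say whether each siRNA was a single duplex or a pool. The series names the controls only, and siIDT, sino4 and siSMPLT were assigned to USP17 by elimination. With 1 library per label and no statement of separate cultures, the p-values reflect how far these libraries scatter. That scatter may be technical or come from the different siRNAs. It was unequal, while the test of all genes used 1 spread for both groups. Over tested genes, the chi-square per degree of freedom between 2 libraries was 6.04 to 12 among the USP17 siRNA libraries. Between siL2 and siNT it was 29.5, near the 30.9 between siSMPLT and siNT, the lowest value across the groups.

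ITM2 proteins are small single-pass membrane proteins that carry a BRICHOS domain, a chaperone-like fold, on the side facing the lumen or the outside of the cell. ITM2B, also called BRI2, is cut by furin, which frees a short peptide from its end. It is then cut by ADAM10 and by an intramembrane protease of the SPPL2 group. ITM2B binds the amyloid precursor protein APP, and mutations in ITM2B cause familial British and Danish dementia. Flotillins are lipid-anchored proteins of the SPFH domain family that sit on the inner face of the plasma membrane and of endosomes, where FLOT1 and FLOT2 assemble with each other into membrane microdomains. They are made in most tissues, gut epithelium included, and take part in endocytosis and in signalling at the membrane.

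Reads in genes numbered 31704821 to 32259474 in the USP17 siRNA libraries, and 34320214 and 36276143 in the control siRNA libraries. The targeted family could not be followed: USP17L2 and the other listed USP17L genes, 30 in all, had 0 reads in every library of both groups. Multimapping reads, 11.01% to 11.6% of the total, are not in those counts, so for near-identical copies a 0 sets no limit on expression. RSEM, which shares such reads out, also listed all 30 at 0. Reads that lay on no gene were 7.05% to 7.49% of all reads in the USP17 siRNA libraries, and 6.58% (siL2) and 6.37% (siNT) in the controls. Of 8 epithelial and colon markers 5 averaged at least 1 TPM (a level per transcript length), and the list summed to 1634 to 1694 TPM with USP17 siRNA, against 2031 TPM in siL2 and 1954 TPM in siNT, most of it CDX2. CDH1, VIL1 and KRT19 were near 0, at means of 0.066, 0.038 and 0.038 TPM. Summed markers of other cell types were 20.02 to 23.5 TPM with USP17 siRNA against 18.7 (siL2) and 25.4 TPM (siNT) for leukocytes, mainly PTPRC, and 6.52 to 7.14 against 6.94 and 6.86 TPM for fibroblasts. Neuroendocrine markers summed to 1.46 to 1.70 TPM with USP17 siRNA, against 0.97 TPM in siL2 and 2.53 TPM in siNT, with INSM1 listed at 0, and endothelial markers reached at most 0.22 TPM in either group. The part of the no-gene share and of the epithelial sum in the values below was not tested.

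ITM2B was by far the most abundant of the 5 genes, and its mean with USP17 siRNA was 49.6% of that of the controls. It stood at 677, 654 and 637 CPM (reads relative to library size) in siIDT, sino4 and siSMPLT, against 1333 and 1314 CPM in siL2 and siNT. Each USP17 library lay far below each control, and the libraries of a group lay close together. The means were 656 ± 20.3 CPM (SD, n = 3) with USP17 siRNA and 1324 ± 13.4 CPM (SD, n = 2) with control siRNA, a log2 fold change of -1.01 ± 0.06 (SE, edgeR). Per length, the mean level was 902 ± 34.6 TPM with USP17 siRNA and 1799 ± 13.5 TPM with control siRNA (SD, n = 3 and 2). Against the mean of the same 2 controls, log2 CPM differed by -0.97 in siIDT, -1.02 in sino4 and -1.06 in siSMPLT, and the controls differed from each other by 0.021. ITM2B was chosen by p-value, which favours a small spread within groups. Over all tested genes the median absolute log2 difference of siNT and siL2 was 0.19, beside 0.20 for USP17 siRNA over control siRNA. Among the 755 most abundant genes (mean log2 CPM 8 or more) 3, ITM2B included, had a log2 fold change of -1 or lower. Over all tested genes 159 (0.973%) did. ITM2B at -1.01 lies just past that limit, so nothing is read from the count.

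ITM2C, the paralog also called BRI3, overlapped between the groups. It was counted at 77.3, 77.3 and 68.1 CPM in siIDT, sino4 and siSMPLT, against 59.2 and 74.9 CPM in siL2 and siNT, the siNT value lying among those of the USP17 libraries. The log2 fold change was 0.15 ± 0.11 (SE). Its sign depended on the controls: it was -0.014 without siL2 and 0.32 without siNT, which differed by 0.34 on the log2 scale. ITM2A, known from T cells, cartilage and muscle precursors, was not detectable at this depth, with 0, 1 and 0 reads in siIDT, sino4 and siSMPLT against 2 and 1 reads in siL2 and siNT. All of these lie under the 3 reads that a count of 0 allows (0.0827 to 0.0946 CPM), so no fold is given, and it was the single gene of the 5 that did not pass the filter on low counts.

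FLOT2 was the second gene with a large difference. It measured 27.3, 28.4 and 30.04 CPM in siIDT, sino4 and siSMPLT, against 67.3 and 70.8 CPM in siL2 and siNT. Again no USP17 library came near a control. The means were 28.6 ± 1.37 CPM (SD, n = 3) with USP17 siRNA and 69.0 ± 2.49 CPM (SD, n = 2) with control siRNA, or 41.4% of the control level, and the log2 fold change was -1.27 ± 0.08 (SE). By library it was -1.34, -1.28 and -1.20 in siIDT, sino4 and siSMPLT against the mean of the same 2 controls. Per length the difference was smaller, with 18.3 ± 0.961 TPM (SD, n = 3) with USP17 siRNA and 40.4 ± 0.672 TPM (SD, n = 2) with control siRNA, or 45.3%.

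The isoform-weighted effective length that RSEM gave FLOT2 differed as well. It was 2315, 2186 and 2293 bases in siIDT, sino4 and siSMPLT, against 2412 and 2469 bases in siL2 and siNT, a mean 7.2% shorter with USP17 siRNA and without overlap. Such separation is common here, being found in 39.1% of tested genes, and 16.5% of tested genes differed in mean length by as much or more. For ITM2B, ITM2C and FLOT1 the means differed by 0.721%, 0.668% and -2.41%. Isoform levels were not analysed here.

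FLOT1, the partner of FLOT2, overlapped between the groups. Counts came to 79.3, 79.9 and 78.3 CPM in siIDT, sino4 and siSMPLT, against 77.7 and 86.8 CPM in siL2 and siNT, so that all USP17 values lay between the controls. The log2 fold change was -0.055 ± 0.08 (SE), and without siNT it was 0.027. RNA only was measured, and what happened to the flotillin proteins is not known from these data.

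**Figure D1:**
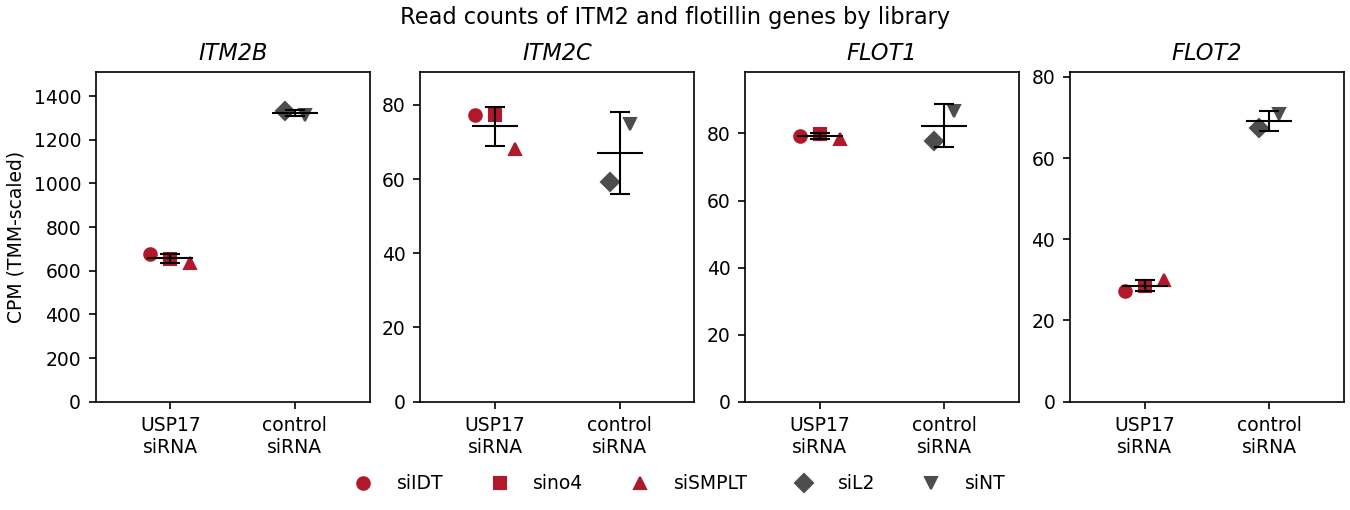
Read counts of ITM2B, ITM2C, FLOT1 and FLOT2 in CPM (y axes from 0, a scale for each gene) in the 3 USP17 siRNA libraries (red) and the 2 control siRNA libraries (grey), with group means and SD as black bars. ITM2B at 637 to 677 CPM and FLOT2 at 27.3 to 30.04 CPM with USP17 siRNA lie well under their controls, while ITM2C and FLOT1 overlap.

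ITM2B and FLOT2 were among the genes called by edgeR's quasi-likelihood test (adjusted p under 0.05), and ITM2C and FLOT1 were not. Of all genes tested 10.5% were called, 5.82% lower and 4.64% higher with USP17 siRNA, and the groups did not overlap in CPM for 45.9%. Since the members were chosen from this contrast, nothing is read from their count. The number of called genes depended on the libraries, being 130 without sino4, 349 without siIDT and 2633 without siNT. As a description, the log2 fold change over 12 refits of the counts was -1.04 to -0.99 for ITM2B and -1.31 to -1.24 for FLOT2.

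**Figure D2:**
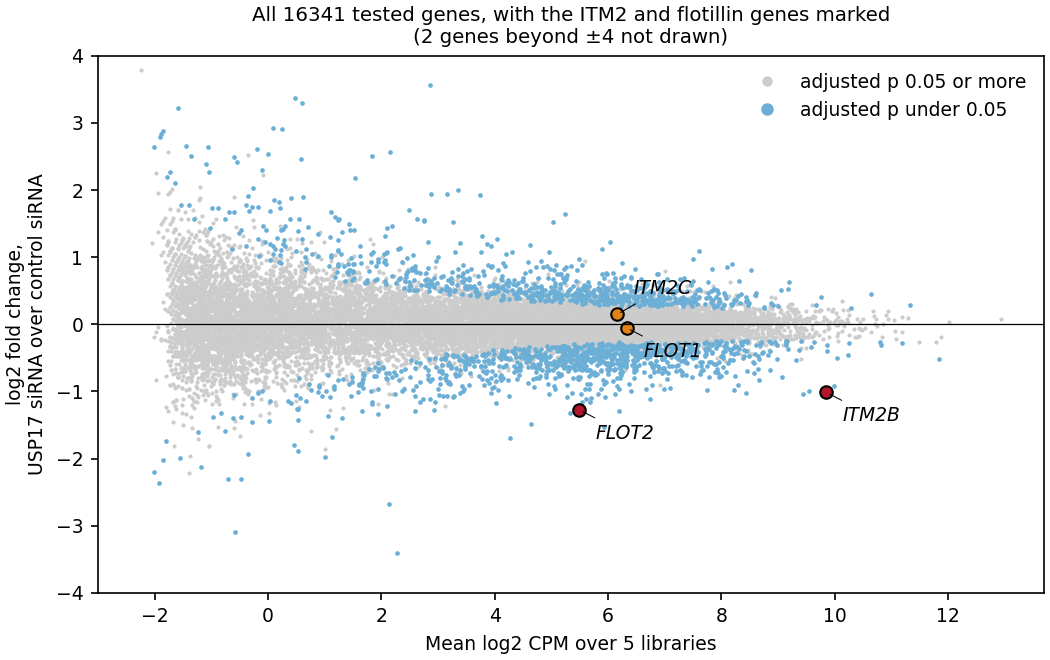
Log2 fold change (USP17 siRNA over control siRNA, y axis) against mean log2 CPM (x axis) for the 16341 genes tested, with called genes in blue and the detected ITM2 and flotillin genes as large points. ITM2B lies at -1.01 among the abundant genes and FLOT2 at -1.27, while ITM2C and FLOT1 lie near 0.

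The order of the 5 genes by TPM, which is per length, was the same in both groups: ITM2B, FLOT1, ITM2C, FLOT2, ITM2A. FLOT1 at 71.0 ± 2.62 TPM (SD, n = 3) with USP17 siRNA and 70.7 ± 7.25 TPM (SD, n = 2) with control siRNA stood above ITM2C at 55.0 ± 4.17 and 48.6 ± 6.97 TPM, and the ranges of the 2 genes did not meet in either group. ITM2C and FLOT2 were well apart with USP17 siRNA, at 50.2 to 57.6 TPM and 17.2 to 19.0 TPM. In the controls they were neighbours, at 43.7 and 53.5 TPM and at 39.9 and 40.9 TPM, and the gap between these ranges was smaller than the spread of the ITM2C values. ITM2B made up 94.3% ± 0.379 of the summed ITM2 TPM with USP17 siRNA and 97.4% ± 0.386 with control siRNA (SD, n = 3 and 2), so the family sum followed it, at 957 ± 36.7 TPM with USP17 siRNA and 1847 ± 6.53 TPM with control siRNA. FLOT2 made up 20.5% ± 1.44 of the summed flotillin TPM with USP17 siRNA and 36.4% ± 1.99 with control siRNA. The flotillin sum was 89.3 ± 1.68 TPM with USP17 siRNA and 111 ± 7.93 TPM with control siRNA.

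Each of the 2 genes was also set against its paralog in the same library, as a description, since the ratio contains the contrast by which they were chosen. The ratio of ITM2B to ITM2C in TPM was 16.5, 15.3 and 17.6 in siIDT, sino4 and siSMPLT, against 41.4 and 33.4 in siL2 and siNT. For FLOT2 to FLOT1 it was 0.232, 0.270 and 0.273 in siIDT, sino4 and siSMPLT, against 0.609 and 0.539 in siL2 and siNT. Neither ratio overlapped between the groups. How many gene pairs have ratios that do not overlap was not computed. For the CPM of single genes, a different measure, the share without overlap was 45.9% of all tested genes. On the log2 CPM scale the group difference was -1.17 for ITM2B over ITM2C and -1.22 for FLOT2 over FLOT1.

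**Figure D3:**
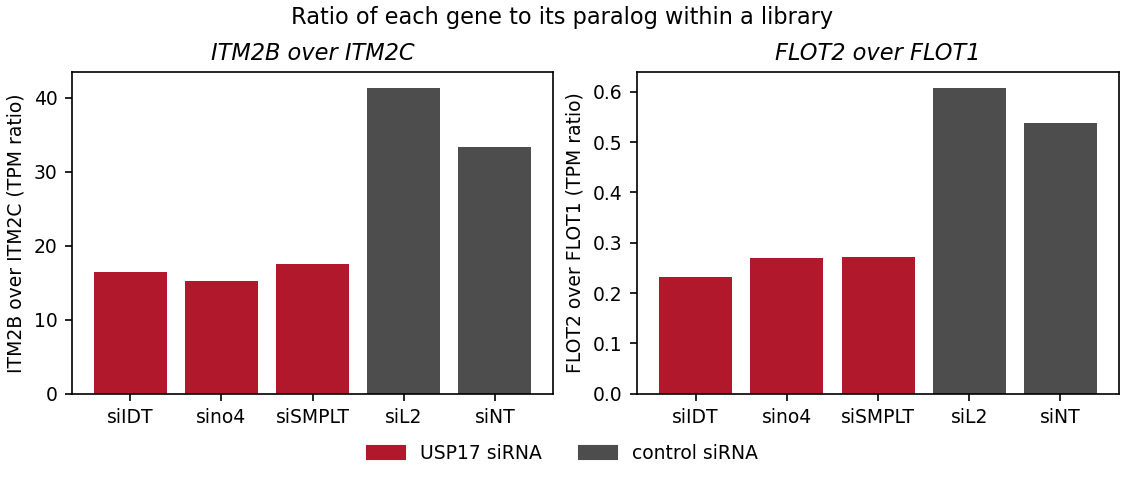
Ratio of ITM2B to ITM2C (left) and of FLOT2 to FLOT1 (right) in TPM, as 1 bar per library from 0, red for USP17 siRNA and grey for control siRNA. Both ratios are lower in each USP17 siRNA library, at 15.3 to 17.6 and 0.232 to 0.273, than in the controls.

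A 7-base sequence that earlier results of these libraries linked to lower counts, ATCACTC, was searched on the sense strand in the 3' untranslated regions (UTRs) of GENCODE release 29 transcripts (GRCh38) that the deposited tables also list. Of 12441 tested genes with such a UTR, 879 (7.07%) held it, and their median log2 fold change was -0.13, against -0.0053 in the others. The 7-mer was known from results of these same libraries, so this difference is a description and nothing is read from it. Among the 904 of these genes called lower by edgeR, FLOT2 included, 19.4% held it. FLOT2 held it once, at bases 319 to 325 of its 1226-base UTR. Of the 1766 genes with UTRs of similar length (shorter or longer by a factor of at most 1/0.8), 4.64% held it. FLOT1 (407 bases), ITM2A (705), ITM2B (867) and ITM2C (1148) did not hold it. None of the 5 held the overlapping 7-mer TCACTCA, found in 10.9% of the 12441 genes, or GATCATC, found in 5.50%. The 6 bases TCACTC that the first pair of 7-mers share, found in 29.4%, were searched only once the data had been seen, and occurred in FLOT2 alone. A longer 9133-base UTR of ITM2B, from a transcript that the deposited tables do not list, held TCACTC at 2 places and none of the 7-mers. The FLOT2 window, on the minus strand at chr17:28880224-28880253, is shown with those of EIF4G1 (plus strand, chr3:184335214-184335243) and TCF3 (minus strand, chr19:1611260-1611289), which also held ATCACTC and whose profiles were among the closest to ITM2B or FLOT2. Capitals mark the 7-mer.
FLOT2: tgtttattacaATCACTCtctgtggggggt
EIF4G1: attttctgaaaATCACTCtcgggactgccg
TCF3: aatggaaacatATCACTCaagggggatgct
The run of bases that FLOT2 shared with EIF4G1 around the 7-mer was 10 long, and with TCF3 it was the 7 bases alone. A match describes these letters, and its part in the counts of FLOT2 was not tested. The sequences of the siRNAs were not used here.

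The 5 genes lie on different chromosomes of GRCh38. ITM2A (ENSG00000078596.11) is on chromosome X at 79360384 to 79367667 (minus strand), ITM2B (ENSG00000136156.15) on 13 at 48232612 to 48270357 (plus), ITM2C (ENSG00000135916.16) on 2 at 230864639 to 230879248 (plus), FLOT1 (ENSG00000137312.15) on 6 at 30727709 to 30742733 (minus) and FLOT2 (ENSG00000132589.16) on 17 at 28879335 to 28897679 (minus). No other gene with more than 2 reads in any library overlaps any of them. Of the neighbours of ITM2B, MED4, a subunit of the Mediator complex that links transcription factors to RNA polymerase, fell with USP17 siRNA. It had 196, 192 and 195 CPM in siIDT, sino4 and siSMPLT, against 314 and 319 CPM in siL2 and siNT, and its log2 fold change was -0.70 ± 0.06 (SE, adjusted p = 0.00218 in edgeR's test). MED4 lies 137481 bases from ITM2B, and its UTR held none of the 7-mers. RB1, the retinoblastoma tumour suppressor and the nearest coding gene at 33369 bases, had 247, 256 and 242 CPM with USP17 siRNA against 241 and 266 CPM in siL2 and siNT (log2 fold change -0.031 ± 0.07 SE). LPAR6, a receptor gene, was not tested.

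The neighbours of FLOT2 did not pass with all 5 libraries. DHRS13, 102 bases away, had 13.7, 14.2 and 12.9 CPM in siIDT, sino4 and siSMPLT against 11.9 and 12.5 CPM in siL2 and siNT (log2 fold change 0.15 ± 0.11 SE). The log2 fold changes of PHF12, ERAL1 and FAM222B were 0.21, -0.27 and 0.30 (adjusted p 0.199, 0.0936 and 0.118 in edgeR's test). Without siNT, ERAL1 (-0.39, adjusted p = 0.0166) and FAM222B (0.44, adjusted p = 0.0327) were called by edgeR. Around FLOT1, TUBB, a beta-tubulin gene 2283 bases away, had a log2 fold change of -0.048, and MDC1 (-0.23), IER3 (-0.17) and DDR1 (0.26) did not pass either, although MDC1 was called with DESeq2's Wald test and, in edgeR, without siNT (adjusted p 0.0274 and 0.0463). Around ITM2C, CAB39 (0.062) and SP100 (0.43) did not pass and GPR55 and SPATA3 were not tested, as were none of the 4 nearest coding genes of ITM2A.

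**Figure D4:**
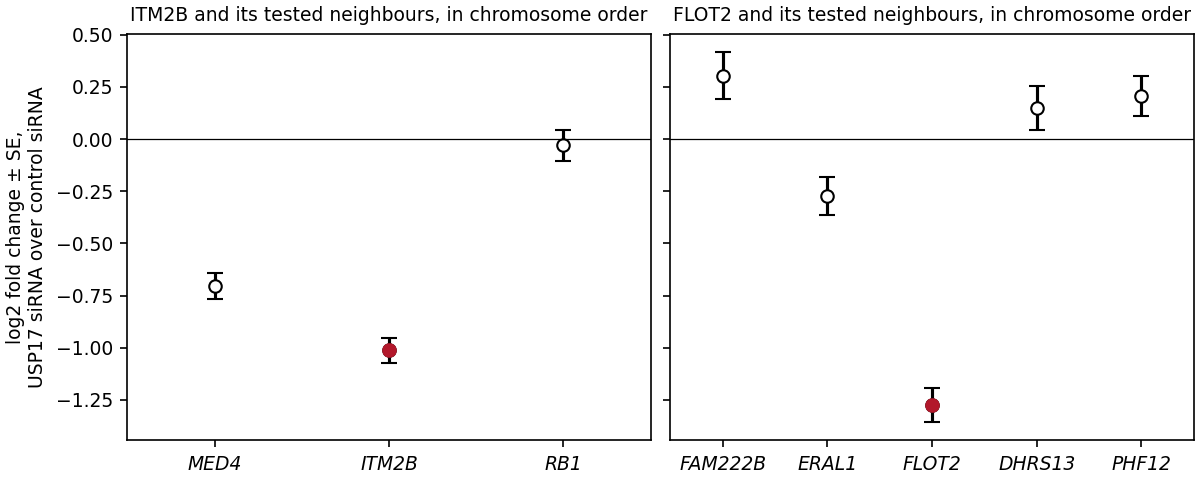
Log2 fold change with SE (USP17 siRNA over control siRNA, y axis) of ITM2B, FLOT2 (red) and the tested coding neighbours reported (open), in chromosome order without distances. MED4 at -0.70 is the neighbour closest in value to ITM2B, and the lowest neighbour of FLOT2 is ERAL1 at -0.27.

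The profiles most like those of the 2 genes were sought by the root mean square difference of log2 CPM, centred on each gene's mean over the 5 libraries, among 6417 genes with a mean log2 CPM of at least 5. For ITM2B the closest were ENTREP3 (0.072), ICMT (0.073), which methylates the end of RAS and other CAAX proteins, and EIF4G1 (0.078), the scaffold of the translation initiation complex eIF4F. EIF4G1 had 743, 754 and 737 CPM in siIDT, sino4 and siSMPLT, against 1514 and 1314 CPM in siL2 and siNT. For FLOT2 they were TNFRSF19 (0.052), a receptor of the TNF family and a Wnt target, TCF3 (0.098), an E-protein transcription factor, and ICMT (0.12). TNFRSF19 had 43.8, 45.4 and 50.0 CPM in siIDT, sino4 and siSMPLT, against 105 and 123 CPM in siL2 and siNT. ITM2B and FLOT2 themselves differed by 0.15. These profiles contain the contrast by which the members were chosen and are a description over 5 libraries. Of the genes named, EIF4G1 and TCF3 held ATCACTC, ICMT and TCF3 held TCACTCA, and ENTREP3 and TNFRSF19 held neither.

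Genes that work beside ITM2B were taken as lists by function. Of its processing proteases and related convertases, 6 of 8 were tested and none passed in either direction (0 higher, 0 lower, against 4.64% and 5.82% of all genes), with a median log2 fold change of 0.11, against 0.0053 over all tested genes. At an unadjusted p under 0.05 there was 1, and DESeq2's Wald test called 1 and limma-voom 0. The most abundant by TPM, ADAM10, which sheds the BRICHOS domain, had 163, 176 and 163 CPM in siIDT, sino4 and siSMPLT, against 137 and 176 CPM in siL2 and siNT, and was called by edgeR without siNT (log2 fold change 0.28, adjusted p = 0.0432). FURIN had 44.3, 44.1 and 36.8 CPM with USP17 siRNA against 43.8 and 47.2 CPM in siL2 and siNT. SPPL2B, an intramembrane protease of ITM2B, had a log2 fold change of 0.13 ± 0.10 (SE), and its relative SPPL2A one of 0.42 ± 0.14 (SE, adjusted p = 0.0936 in edgeR's test). FURIN, SPPL2A and SPPL2B were singled out after their values were seen. SPPL2A passed with DESeq2's Wald test and without siSMPLT.

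In the APP family and its secretases 2 of 11 tested genes fell and 0 rose, against 5.82% and 4.64% of all genes, with a median log2 fold change of -0.049. APP, which ITM2B binds, was at 157, 161 and 161 CPM in siIDT, sino4 and siSMPLT, against 201 and 206 CPM in siL2 and siNT. Its log2 fold change was -0.35 ± 0.07 (SE, adjusted p = 0.0174, edgeR). The APP relative APLP2 was at 339, 397 and 402 CPM with USP17 siRNA against 498 and 507 CPM in siL2 and siNT (log2 fold change -0.41 ± 0.08 SE, adjusted p = 0.0227, edgeR). APH1A, a gamma-secretase subunit and the most abundant of the list by TPM, had a log2 fold change of -0.088 ± 0.06 (SE). Without siIDT, and likewise without sino4, when 2.16% and 0.803% of all genes were called, neither APP nor APLP2 passed (adjusted p at most 0.108 for APP and 0.0938 for APLP2, edgeR). Of the BRICHOS genes outside ITM2, 2 of 6 were tested, 1 rose and 0 fell, against 4.64% and 5.82% of all genes (median log2 fold change 1.48). TNMD, which encodes tenomodulin of tendon, rose, at low counts, with 3.61, 5.85 and 6.35 CPM in siIDT, sino4 and siSMPLT, against 1.08 and 0.764 CPM in siL2 and siNT (log2 fold change 2.51 ± 0.30 SE, adjusted p = 0.0048, edgeR).

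Among the SPFH relatives of the flotillins 2 of 7 tested genes fell and 0 rose, against 5.82% and 4.64% of all genes, with a median log2 fold change of -0.091. Both act in the inner mitochondrial membrane. STOML2 had 95.5, 95.5 and 103 CPM in siIDT, sino4 and siSMPLT, against 139 and 121 CPM in siL2 and siNT (log2 fold change -0.40 ± 0.09 SE, adjusted p = 0.0242, edgeR). PHB1, a prohibitin with processed pseudogenes that could take reads from it, had 192, 195 and 201 CPM with USP17 siRNA against 256 and 251 CPM in siL2 and siNT (log2 fold change -0.37 ± 0.06 SE, adjusted p = 0.0146, edgeR). Its partner PHB2, the most abundant of the list by TPM, had a log2 fold change of -0.091 ± 0.06 (SE). Both calls were lost without siIDT and without sino4 (adjusted p at most 0.134 for STOML2 and 0.10 for PHB1, edgeR).

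Caveola genes build another well known kind of membrane microdomain. CAV1, the main coat protein, had 1.22, 1.05 and 1.19 CPM in siIDT, sino4 and siSMPLT, against 1.11 and 1.84 CPM in siL2 and siNT. Of 6 tested genes 1 fell and 0 rose, against 5.82% and 4.64% of all genes, with a median log2 fold change of -0.41. That median was -0.19 without siNT and -0.56 without siL2, and genes with few reads, such as CAV1, are among the 6. The gene that fell was PACSIN2, a membrane-bending protein of the caveola neck, at 35.95, 37.7 and 46.2 CPM with USP17 siRNA against 55.8 and 61.8 CPM in siL2 and siNT (log2 fold change -0.56 ± 0.12 SE, adjusted p = 0.0233, edgeR), and it was not called without siIDT or without sino4. PACSIN3, the most abundant by TPM, had a log2 fold change of -0.026 ± 0.09 (SE). CAVIN4 lay just past the threshold (log2 fold change -0.47, adjusted p = 0.0503, edgeR) and passed in 4 alternatives. CAV1 and CAVIN4 were singled out after their values were seen. Of the flotillin partners and other raft proteins 12 of 16 were tested and none passed, against 4.64% higher and 5.82% lower over all genes (median log2 fold change -0.0095). At an unadjusted p under 0.05 there were 3, DESeq2's Wald test called 2 higher and 1 lower, and limma-voom called 0. Without siNT 2 were called higher, and without siL2 1 lower. The most abundant by TPM was MAL2, at 342, 375 and 370 CPM in siIDT, sino4 and siSMPLT, against 386 and 379 CPM in siL2 and siNT.

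**Figure D5:**
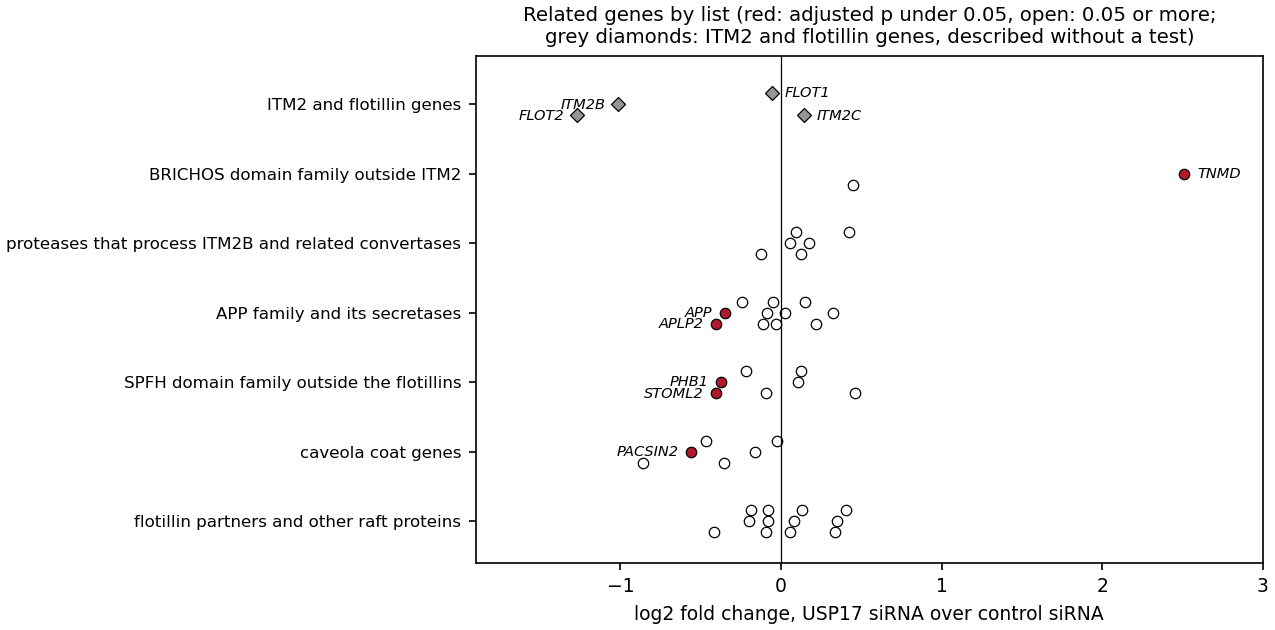
Log2 fold change (USP17 siRNA over control siRNA, x axis) of each tested gene by list, with genes called by edgeR in red, others open, and ITM2B, ITM2C, FLOT1 and FLOT2 as grey diamonds. TNMD at 2.51 lies to the right, and APP, APLP2, STOML2, PHB1 and PACSIN2 at -0.35 to -0.56 lie left of 0, all closer to it than ITM2B and FLOT2.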

How the data were processed

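Per the submitters' processing notes, reads were converted with bcl2fastq 2.20, aligned to GRCh38 with STAR 2.7.1a and quantified with RSEM 1.3.2. An annotation release and strand setting are not given in those notes. Read counts as deposited are whole reads per gene in STAR's layout, and the column with 18.7 to 19.9 times the reads of the opposite strand was used. Rows that name no gene held 22.8% to 24.4% of reads and were left out. The authors computed expected counts and TPM with RSEM; for the 4 detected members, expected counts were 0.948 to 0.989 times the read counts. Counts were fitted in edgeR 4.0.16 (R 4.3.3): filterByExpr (minimum count 10, minimum total 15), TMM, quasi-likelihood F test, two-sided, Benjamini-Hochberg over all 16341 genes at 0.05, tested on simulated data. CPM is TMM-scaled, and log2 CPM has a prior count of 2. The SE is the log2 fold change over the root of F. The limit of 3 reads covers counting error only. Alternatives used DESeq2 1.42.0, limma 3.58.1, other filters, rounded RSEM counts, counts without regard to strand and leaving out each library. UTRs, coordinates and sequences came from GENCODE 29, taking per gene the principal basic transcript that the deposited tables list, or else a basic one, with the longest UTR. Named were all members, each list's called and most abundant genes, the nearest 2 coding genes per side and the 3 closest profiles; exceptions are marked, and 1 neighbour is not reported here. Members, lists and 7-mers were chosen with earlier results of these data known.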

Additional observations from a re-analysis of the deposited data

Results flagged for a closer look

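Reads on the strand opposite to ITM2C entered only the refit of counts without regard to strand. They were few but higher with USP17 siRNA, at 29, 31 and 27 reads in siIDT, sino4 and siSMPLT, against 21 and 25 reads in siL2 and siNT. The means were 0.904 CPM with USP17 siRNA and 0.651 CPM with control siRNA (without TMM scaling). The difference was not tested, and the share of all genes whose opposite-strand reads separate the groups was not computed. ITM2B and FLOT2 went the other way. For ITM2B, opposite-strand reads were 73, 81 and 104 in siIDT, sino4 and siSMPLT, against 251 and 167 in siL2 and siNT. For FLOT2 they were 8, 7 and 9 in siIDT, sino4 and siSMPLT, against 19 and 17 in siL2 and siNT.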

How the results depend on the processing

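No paired analysis was possible because the labels give no replicate numbers and each siRNA label has 1 library. The number of called genes, 1710, was 130 to 2633 when 1 library was left out (349 without siIDT, 130 without sino4, 1041 without siSMPLT, 2633 without siNT) and 3074 at an adjusted p of 0.10; where 1 control remained, it was assumed to vary like the USP17 siRNA libraries. ITM2B and FLOT2 were called in all 12 refits, on the libraries they were chosen from. ITM2C and FLOT1, never called, ranged over -0.014 to 0.32 and -0.13 to 0.027 (log2) when 1 library was left out. The group difference in the log2 ratio of ITM2B to ITM2C then ranged over -1.35 to -0.99. For the log2 ratio of FLOT2 to FLOT1 the group difference was -1.11 with TPM and a pseudocount of 1, and -1.15 with a pseudocount of 0.1. TPM is per effective length, whose mean with USP17 siRNA differed from that of the controls by -7.2% for FLOT2 and -2.4% for FLOT1. The part of length and pseudocount in this was not tested. Without a filter ITM2A could be fitted, but both groups lie under the limit of 3 reads. When 1 library was left out, signs also turned for these genes, uncalled with all libraries: ADAM10 (-0.075 to 0.28), CAV1 (-0.67 to 0.058), PACSIN3 (-0.089 to 0.039), RB1 (-0.10 to 0.042), CAB39 (-0.0097 to 0.14) and SP100 (-0.080 to 1.21; -0.25 with the unstranded column). With 3 against 2 libraries, small differences in ITM2C and FLOT1 were not detectable.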
